A study of Homo sapiens with 6 samples.

Results

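The genes examined were the translation initiation and elongation factors, taken as every protein-coding gene whose GENCODE name begins with EIF and a digit from 1 to 6, or with EEF1 or EEF2 followed by A, B, D, G or K. The rule gave 68 genes of 19991 protein-coding genes, spread over 21 chromosomes. EEF2, the translocase of elongation, carries no further letter and was not selected, so it is given beside the members as a neighbour. RNA came from K562 cells, an erythroleukemia line, that had been transduced with lentivirus carrying a hairpin against luciferase (shCtrl) or against PCBP1 (shPCBP1), in medium with 8 µg/ml polybrene, and then kept in 3 µg/ml puromycin for 4 days. Each group held 3 poly-A RNA libraries, each group used 1 hairpin, and the labels do not say whether the libraries of a group came from separate cultures. The p-values therefore measure the spread between these libraries, which may be technical. PCBP1 is an RNA-binding protein with a preference for C-rich stretches that also acts as an iron chaperone, and the libraries were made to ask how its loss alters RNA levels and processing.

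Translation begins when EIF2, loaded with GTP and the initiator transfer RNA, joins the small ribosomal subunit together with EIF1, EIF1A, EIF3 and EIF5. The cap at the start of the mRNA is bound by EIF4E, which is joined by the scaffold EIF4G and the helicase EIF4A, and 4E-binding proteins compete with EIF4G for EIF4E. EIF2B reloads EIF2 with GTP, and 4 kinases that sense heme, double-stranded RNA, unfolded protein or amino acid lack phosphorylate EIF2 and so slow initiation. During elongation EEF1A brings aminoacyl transfer RNA to the ribosome, the EEF1B complex reloads EEF1A, and EEF2 moves the ribosome along until it is held back by EEF2 kinase.

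Libraries held between 67066747 and 140522444 estimated counts, and the shPCBP1 libraries were on the whole shallower. The targeted gene had normalized counts from 37799 to 40566 in shCtrl and from 6625 to 7277 in shPCBP1, where PCBP1 was at 18.1% of its shCtrl level. Of 10 erythroid markers of K562, 10 had a mean of at least 1 TPM (a level scaled for transcript length and for the library's total), and their summed level was 29074 to 34895 TPM in shCtrl and 33281 to 34715 TPM in shPCBP1. Of 12 markers of T cells, B cells, fibroblasts and epithelium, 5 reached 1 TPM, 0 were at 0 in all libraries, and their summed level was 110 to 122 TPM in shCtrl and 88.9 to 104 TPM in shPCBP1. Of these lists 4 erythroid and 3 other markers had an adjusted p under 0.05, and their part in the results was not tested. Since RNA was measured in bulk, fewer cells with a transcript and less of it in each cell cannot be told apart.

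Translation factor RNAs changed little in size, and the changes ran in both directions. The largest fall was in EEF1A2, which came down to 51.1% of its control level, and EEF2K, EIF4E3, EIF4G3 and EEF1B2 fell less. Among the genes that rose were EIF2B4, EIF1AX, EIF4A3 and 7 of the cap-binding and helicase group, by at most 0.32 on the log2 scale. Of the 68 members, 67 had a summed count of at least 10 and entered the test, and 65 received an adjusted p. EIF4E1B was listed at 0 and did not enter, and EEF1AKMT4-ECE2 and EIF1AY entered without an adjusted p. At an adjusted p under 0.05 (DESeq2 Wald test with Benjamini-Hochberg adjustment over all genes), 29 members changed, 21 higher and 8 lower in shPCBP1. That was 44.6% of the members tested, against 31.2% of all 17095 genes tested (17.7% higher and 13.5% lower) and 37.0% of protein-coding genes, while 21.9% of protein-coding genes were higher and 15.1% lower.

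Most of these genes are well expressed, so the share was also read among genes past a floor in mean normalized count. Mean normalized counts were 1000 or more in 60 members, of which 28 changed (46.7%), 21 higher and 7 lower. Among all protein-coding genes past that floor 45.2% changed, 29.4% higher and 15.8% lower. The share of changed translation factors was thus near that of protein-coding genes past the same floor. The floor does not match depth above it, where some members lie far up, as EIF4G1 with a mean normalized count of 83970. Whether the members are typical for their depth was not tested. Groups did not overlap in 37 of the 65 members with an adjusted p, 25 higher and 12 lower. The same held for 44.2% of all genes tested, 23.7% higher and 20.5% lower, a background not matched for depth. The changes were small, with an absolute log2 fold change under 0.25 in 24 of the 29. The median log2 fold change was 0.049 over members, 0.022 over protein-coding genes and 0.0019 over all genes tested. No member reached the absolute log2 fold change of 1 that the study asked for, which 1.37% of all genes did (235 genes).

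The direction of the calls depended on which transcripts were summed. When annotated protein-coding transcripts alone were counted, 29 members again changed, but 16 were higher and 13 lower, and the share of higher calls went from 72.4% to 55.2%. Without shPCBP1 replicate 1 the count was 19, with 14 higher and 5 lower. No share over all genes stands beside these settings, so whether the shift in direction is particular to the members was not tested.

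**Figure D1:**
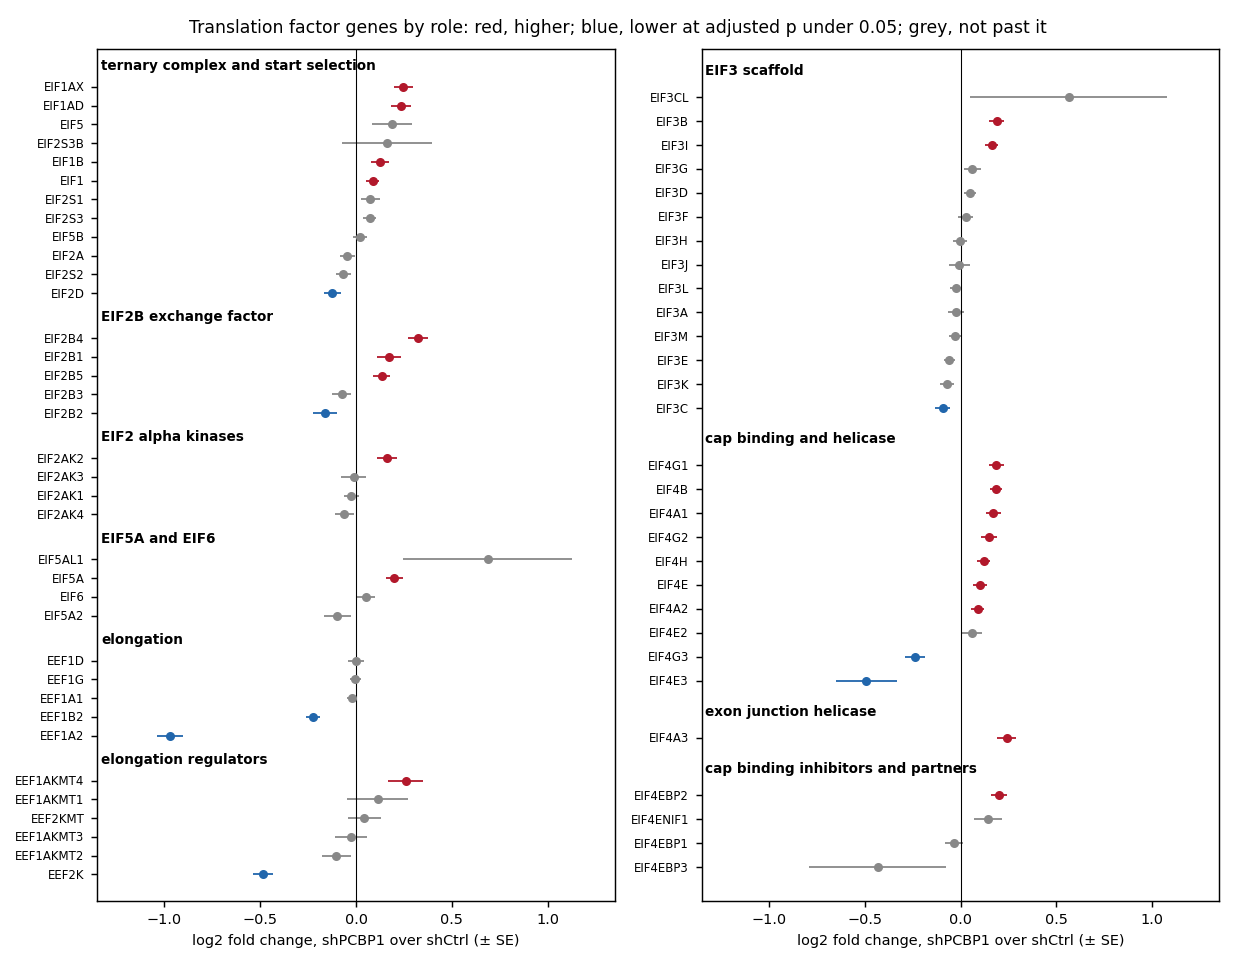
The 65 members with an adjusted p, grouped by role, with the log2 fold change of shPCBP1 over shCtrl on the horizontal axis and the standard error as bars. Red marks genes higher and blue genes lower at a DESeq2 adjusted p under 0.05, and most points lie within 0.25 of 0, with EEF1A2 at -0.97 farthest out among the changed genes.

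The elongation factors differed among themselves. EEF1A2 (chromosome 20, 63488013 to 63499239, GRCh38, minus strand) is the isoform of EEF1A that muscle and neurons rely on, and it is also made in some tumours. Its normalized counts were 10277, 10469 and 11554 in shCtrl and 4941, 5427 and 6149 in shPCBP1. EEF1A2 fell by 0.97 on the log2 scale (SE 0.0672, DESeq2 adjusted p 1.76e-44), and the groups were far apart relative to their spread. Its isoform EEF1A1 (chromosome 6), the common form, stood at 1039360, 1026290 and 1036990 normalized counts in shCtrl and at 1027000, 1023220 and 1011730 in shPCBP1. The log2 fold change of EEF1A1 was -0.02 (SE 0.0263, DESeq2 adjusted p 0.647), and its groups overlapped. Counting coding transcripts alone, EEF1A1 passed the test at -0.06 (DESeq2 adjusted p 0.0106). In TPM, EEF1A1 exceeded EEF1A2 by 91.8-fold ± 8.15 in shCtrl and by 176-fold ± 21.1 in shPCBP1 (SD, n = 3). Expressed per length, EEF1A2 had 88.6 ± 7.8 TPM in shCtrl and 45.2 ± 6.1 TPM in shPCBP1 (SD, n = 3).

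EEF1B2 (chromosome 2, 206159585 to 206162928, plus strand), an exchange factor that reloads EEF1A, had 27968, 26914 and 27744 normalized counts in shCtrl and 24394, 23491 and 22808 in shPCBP1. EEF1B2 fell by 0.23 (SE 0.0367, DESeq2 adjusted p 1.83e-08), with all shPCBP1 libraries below all shCtrl libraries. The other subunits of the same complex, EEF1G and EEF1D, had log2 fold changes of -0.0035 and -0.00072 and overlapping groups. EEF2 itself ran from 296380 to 305729 normalized counts in shCtrl and from 311483 to 326190 in shPCBP1. The groups of EEF2 did not overlap, but its log2 fold change of 0.07 missed the threshold (DESeq2 adjusted p 0.0554) and passed it without shCtrl replicate 3 (0.0303) or without shPCBP1 replicate 3 (0.0424).

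EEF2K (chromosome 16, 22206278 to 22288738, plus strand) encodes the kinase that phosphorylates and inactivates EEF2. In shCtrl it had 6531, 6855 and 6363 normalized counts, and in shPCBP1 4523, 4639 and 4945. EEF2K fell by 0.49 (SE 0.0528, DESeq2 adjusted p 3.09e-18), the second lowest p among the members. The remaining elongation regulators are lysine methyltransferases of EEF1A and EEF2. EEF1AKMT4 rose by 0.26 (DESeq2 adjusted p 0.016), an uncertain estimate because the gene shares its strand and locus with EEF1AKMT4-ECE2, and the call was lost with length offsets and without shCtrl replicate 2, shPCBP1 replicate 1 or shPCBP1 replicate 2. EEF1AKMT1, EEF1AKMT2, EEF1AKMT3 and EEF2KMT did not pass, with log2 fold changes from -0.10 to 0.11.

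**Figure D2:**
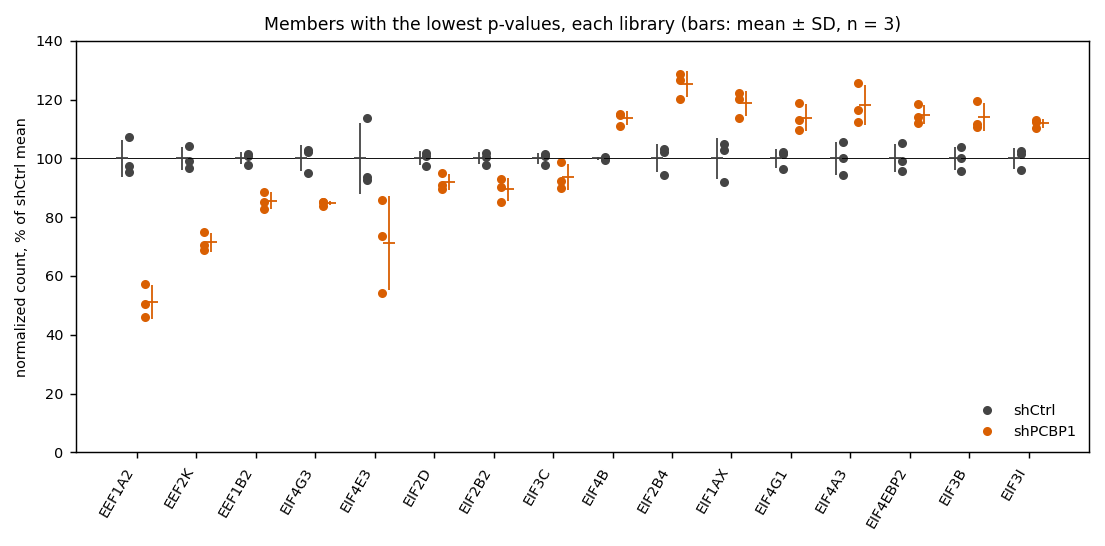
Normalized counts of each library as a percentage of the shCtrl mean for the 8 members that fell and the 8 members that rose with the lowest p-values, with the mean ± SD of 3 libraries beside the points. EEF1A2 stands lowest in shPCBP1, EEF2K and EIF4E3 have the next lowest means, EIF4E3 spreads most, and EIF3C has overlapping groups.

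The 3 subunits of EIF2 gave no call. EIF2S1, the alpha subunit that is phosphorylated, had 15699, 13969 and 15647 normalized counts in shCtrl and 16326, 16272 and 15098 in shPCBP1, with overlapping groups (log2 fold change 0.07, DESeq2 adjusted p 0.279). EIF2S2, the beta subunit, and EIF2S3, the gamma subunit, had log2 fold changes of -0.07 and 0.07, and each passed under 1 alternative. Among the 12 factors of the ternary complex and start selection that had an adjusted p, 4 rose and 1 fell. EIF1AX, which holds the scanning ribosome open and lies on the X chromosome (20124525 to 20141838, minus strand), rose from 23683, 21156 and 24162 to 28099, 27620 and 26182 normalized counts. Its log2 fold change was 0.25 (SE 0.048, DESeq2 adjusted p 3.49e-06), the groups did not overlap, and with transcript length offsets it was 0.40. EIF1AD, a relative of EIF1A, rose by 0.23 (DESeq2 adjusted p 9.49e-05).

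EIF1 and EIF1B, which guard start codon choice, rose by 0.09 and 0.13 (DESeq2 adjusted p 0.0271 and 0.0259). Each of these calls was lost under several alternatives, EIF1 under 8 of 17 and EIF1B under 7 of 17, and EIF1B overlaps another coding gene on its strand. EIF2D, which can deliver transfer RNA without EIF2, fell by 0.12 (DESeq2 adjusted p 0.0181), from 9054, 8739 and 9149 to 8167, 8526 and 8052 normalized counts. The groups of EIF2D did not overlap, but among other settings it did not pass without shCtrl replicate 1 (DESeq2 adjusted p 0.0748), shCtrl replicate 3 (0.0759), shPCBP1 replicate 1 (0.0616) or shPCBP1 replicate 3 (0.0707), or with length offsets (0.319). EIF5, the GTPase activator of EIF2, did not pass although its groups did not overlap (log2 fold change 0.19, DESeq2 adjusted p 0.162). It passed with length offsets. EIF5B, which joins the ribosomal subunits, did not pass (log2 fold change 0.02) and had overlapping groups.

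Of the 5 EIF2B subunits, 4 changed, 3 of them higher and 1 lower. For comparison, 45.2% of protein-coding genes past the floor of 1000 changed, and no test set the subunits against them. Only the call of EIF2B4 held under all 17 alternatives. EIF2B4 (chromosome 2, 27364352 to 27370338, minus strand), the delta subunit, had 5244, 4799 and 5193 normalized counts in shCtrl and 6540, 6426 and 6105 in shPCBP1. It rose by 0.32 (SE 0.0526, DESeq2 adjusted p 1.79e-08), the largest rise among the changed members, and its groups did not overlap. The catalytic epsilon subunit EIF2B5 rose by 0.14 (DESeq2 adjusted p 0.0105) and the alpha subunit EIF2B1 by 0.17 (0.0174), the latter with overlapping groups. EIF2B1 did not pass without either of shCtrl replicates 1 and 2 or either of shPCBP1 replicates 1 and 2, and EIF2B5 not without shPCBP1 replicate 1 or 2. Both calls were also lost under edgeR and with length offsets, and that of EIF2B1 with coding transcripts alone. EIF2B2, the beta subunit, fell by 0.16 (SE 0.0638, DESeq2 adjusted p 0.0393), from 2740, 2633 and 2710 to 2427, 2502 and 2299 normalized counts. Among other settings, its call was lost with length offsets (DESeq2 adjusted p 0.394), without independent filtering (0.0644) and without shCtrl replicate 1 (0.125), shCtrl replicate 3 (0.0982), shPCBP1 replicate 1 (0.073) or shPCBP1 replicate 3 (0.135). Counting coding transcripts alone gave EIF2B2 a log2 fold change of -0.28. The mean level of the subunits ran from 30.8 TPM for EIF2B2 to 73.2 TPM for EIF2B1, so the subunit that fell was also the one with least RNA.

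Among the 4 EIF2 kinases, 1 passed. EIF2AK2 (PKR), the kinase for double-stranded RNA, had 5420, 5285 and 5396 normalized counts in shCtrl and 5659, 5986 and 6392 in shPCBP1. EIF2AK2 rose by 0.16 (SE 0.0532, DESeq2 adjusted p 0.00965), but did not pass with length offsets (0.593), with coding transcripts alone (0.145) or without shPCBP1 replicate 3 (0.0762). EIF2AK1 (HRI), the heme-regulated kinase of erythroid cells, had 27522, 27766 and 29474 normalized counts in shCtrl and 28882, 27447 and 27012 in shPCBP1. The groups of EIF2AK1 overlapped (log2 fold change -0.02, SE 0.0396, DESeq2 adjusted p 0.707), and the sign turned with length offsets and without shCtrl replicate 3. It was the most abundant of the kinases by length-scaled level, with 115 ± 9 TPM in shCtrl and 121 ± 8.1 TPM in shPCBP1 (SD, n = 3). EIF2AK3 (PERK), the kinase of the endoplasmic reticulum, ran from 2219 to 2383 normalized counts in shCtrl and from 2290 to 2308 in shPCBP1 (DESeq2 adjusted p 0.918). EIF2AK4 (GCN2), the amino acid sensor, had 4938, 4894 and 4898 normalized counts in shCtrl and 4731, 4776 and 4611 in shPCBP1, and did not pass although its groups did not overlap (log2 fold change -0.06, DESeq2 adjusted p 0.365).

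EIF3, the large scaffold on the small ribosomal subunit, changed in 3 of 14 genes. EIF3B, a core subunit, rose from 59175, 56554 and 61276 to 70466, 65904 and 65386 normalized counts (log2 fold change 0.19, SE 0.0395, DESeq2 adjusted p 1.86e-05). EIF3I, which binds EIF3B, rose from 35343, 33103 and 35001 to 38768, 39039 and 38005 (log2 fold change 0.16, SE 0.0352, DESeq2 adjusted p 3.70e-05). Neither gene had overlapping groups. EIF3G, which forms a subcomplex with both, had a log2 fold change of 0.06 and did not pass.

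EIF3C fell by 0.09 (SE 0.0378, DESeq2 adjusted p 0.0445), with 65929, 63592 and 65591 normalized counts in shCtrl, 64228, 60115 and 58548 in shPCBP1, and overlapping groups. The near-identical copy EIF3CL varied from 624 to 1538 normalized counts in shCtrl and from 818 to 1862 in shPCBP1, so reads may be split between the copies. With both copies summed the counts were 66553, 64402 and 67129 in shCtrl and 66089, 61827 and 59366 in shPCBP1, and the DESeq2 adjusted p was 0.110. EIF3C also did not pass without independent filtering (DESeq2 adjusted p 0.0726), without shCtrl replicate 1 (0.181), shCtrl replicate 3 (0.123), shPCBP1 replicate 2 (0.211) or shPCBP1 replicate 3 (0.218), while length offsets moved its log2 fold change to -0.18. The remaining EIF3 subunits ran from -0.07 (EIF3K) to 0.06 (EIF3G) and did not pass, though EIF3E, EIF3K and EIF3M passed with coding transcripts alone, EIF3E and EIF3K also with TMM factors or with protein-coding genes alone, and EIF3K without shCtrl replicate 2. EIF3CL had a log2 fold change of 0.56 with overlapping groups. Length-scaled levels of the 13 subunits other than EIF3CL ran from 43.7 TPM for EIF3A to 615 TPM for EIF3M, with a median of 293 TPM.

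Of the 10 tested genes of the cap-binding and helicase group 7 rose, 2 fell and EIF4E2, a cap-binding repressor, did not pass. Among well-counted protein-coding genes (mean normalized count of 1000 or more) 45.2% changed, no test set the group against them, and the rises of EIF4E and EIF4A2 were lost under many alternatives. EIF4B (chromosome 12, 53006282 to 53042215, plus strand), which stimulates the EIF4A helicase, had 67256, 67884 and 67822 normalized counts in shCtrl and 77954, 77642 and 75143 in shPCBP1. It rose by 0.19 (SE 0.0297, DESeq2 adjusted p 1.10e-08), the lowest p among the rises. EIF4G1 (chromosome 3, 184314495 to 184335358, plus strand), the main scaffold, had 79668, 75714 and 80233 normalized counts in shCtrl and 93316, 88758 and 86132 in shPCBP1. The rise in EIF4G1 was 0.19 (SE 0.0373, DESeq2 adjusted p 6.64e-06), and its groups were apart as well.

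The helicase EIF4A1 rose from 67456, 63592 and 67190 to 77174, 75223 and 70787 normalized counts (log2 fold change 0.17, DESeq2 adjusted p 8.46e-05), an uncertain estimate since the readthrough gene SENP3-EIF4A1 overlaps it. EIF4A2, a close relative, had 43291, 42083 and 42805 normalized counts in shCtrl and 46750, 45408 and 44174 in shPCBP1. EIF4A2 passed (log2 fold change 0.09, DESeq2 adjusted p 0.0267), but with coding transcripts alone its log2 fold change was -0.03 and it did not pass. It also did not pass under edgeR (adjusted p 0.143), with TMM factors (0.0556), with protein-coding genes alone (0.0701) and without shCtrl replicate 2 (0.0589), shPCBP1 replicate 1 (0.117) or shPCBP1 replicate 2 (0.098). The TPM of EIF4A1 over that of EIF4A2 was 1.95 ± 0.045 in shCtrl and 2.08 ± 0.043 in shPCBP1 (SD, n = 3).

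EIF4E, the cap-binding protein itself, had 12848, 12254 and 12523 normalized counts in shCtrl and 13637, 13560 and 13199 in shPCBP1. The log2 fold change of EIF4E was 0.10 (SE 0.0382, DESeq2 adjusted p 0.0267), and the call held under 8 of 17 alternatives. Among others, it was lost under edgeR (adjusted p 0.123), with TMM factors (0.0549), with protein-coding genes alone (0.0649) or coding transcripts alone (0.0934) and without shCtrl replicate 2 (0.0661), shCtrl replicate 3 (0.052), shPCBP1 replicate 1 (0.084) or shPCBP1 replicate 2 (0.107), whereas length offsets gave a log2 fold change of 0.16. EIF4H, which resembles EIF4B, and EIF4G2, a scaffold without an EIF4E site, rose by 0.12 and 0.15 (DESeq2 adjusted p 0.0017 and 0.00179), and EIF4G2 did not pass with length offsets.

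Both genes of the group that fell are scarcer relatives of a gene that rose. This did not hold for other scarcer relatives, as EIF4A2 rose with EIF4A1 and EIF4E2 did not pass. EIF4G3 (chromosome 1, 20806292 to 21177285, minus strand), a second scaffold, had 6247, 6303 and 5807 normalized counts in shCtrl and 5209, 5133 and 5219 in shPCBP1. EIF4G3 fell by 0.24 (SE 0.0501, DESeq2 adjusted p 2.10e-05), with groups that did not overlap. EIF4E3, an atypical cap-binding protein, had 663, 655 and 806 normalized counts in shCtrl and 385, 609 and 520 in shPCBP1. EIF4E3 fell by 0.49 (SE 0.159, DESeq2 adjusted p 0.00896), overlaps another coding gene on its strand, and did not pass with length offsets (0.0996), without shCtrl replicate 3 (0.114) or without shPCBP1 replicate 1 (0.0969, log2 fold change -0.33).

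Of the 4 inhibitors and partners of EIF4E, EIF4EBP2 changed. This 4E-binding protein rose from 19282, 18655 and 20472 to 23061, 22216 and 21810 normalized counts (log2 fold change 0.20, SE 0.0417, DESeq2 adjusted p 1.81e-05), and its groups did not overlap. EIF4EBP1, the better-known inhibitor, had 6477, 6443 and 6035 normalized counts in shCtrl and 6195, 6281 and 6020 in shPCBP1, with overlapping groups (log2 fold change -0.03, DESeq2 adjusted p 0.651). Per length, EIF4E stood at 0.709 ± 0.018 of EIF4EBP1 in shCtrl and at 0.825 ± 0.016 in shPCBP1 (TPM ratio, SD, n = 3). EIF4A3, a relative of EIF4A that anchors the exon junction complex on spliced mRNA, rose from 13690, 12875 and 14389 to 17172, 15915 and 15337 normalized counts (log2 fold change 0.24, SE 0.0502, DESeq2 adjusted p 1.63e-05).

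EIF5A, the factor that carries hypusine and helps the ribosome through difficult peptide bonds, had 66615, 60480 and 63965 normalized counts in shCtrl and 77811, 72806 and 68805 in shPCBP1. EIF5A rose by 0.20 (SE 0.0454, DESeq2 adjusted p 9.59e-05), with no overlap of the groups. EIF5A2, its scarcer isoform, had 1818, 1865 and 1776 normalized counts in shCtrl and 1648, 1741 and 1712 in shPCBP1, and did not pass (log2 fold change -0.10, DESeq2 adjusted p 0.334). EIF6, which keeps the large ribosomal subunit apart from the small one, and the EIF5A copy EIF5AL1 did not pass either. Of 11 tested members that are known as TOP mRNAs, whose translation follows the TOR kinase through a pyrimidine tract at the cap, EIF4B rose, EEF1B2 fell and the other 9 did not pass.

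The members' combined share of RNA was nearly the same in every library. Their summed level lay between 21206 and 21390 TPM, or 2.12% to 2.14% of all TPM, of which EEF1A1 made up 36.5% to 38.7%. In all, 34 members averaged at least 100 TPM and 5 averaged under 1 TPM. After EEF1A1 the highest levels were those of EEF1G, with 1957 ± 12.2 TPM in shCtrl, and EIF5A, with 818 ± 26 TPM (SD, n = 3). Transcripts annotated as protein-coding held 84.1% to 84.7% of the members' TPM, retained-intron transcripts 11.1% to 11.6% and transcripts subject to nonsense-mediated decay 1.83% to 2.17%. The nonsense-mediated decay share was 1.83% to 1.97% in shCtrl and 2.05% to 2.17% in shPCBP1, a difference that was not tested. These transcripts did not all move the same way. From shCtrl to shPCBP1, EIF3M-212 went from a mean of 35.7 to 62.0 TPM and EIF3F-204 from 122 to 114 TPM, and neither was called.

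**Figure D3:**
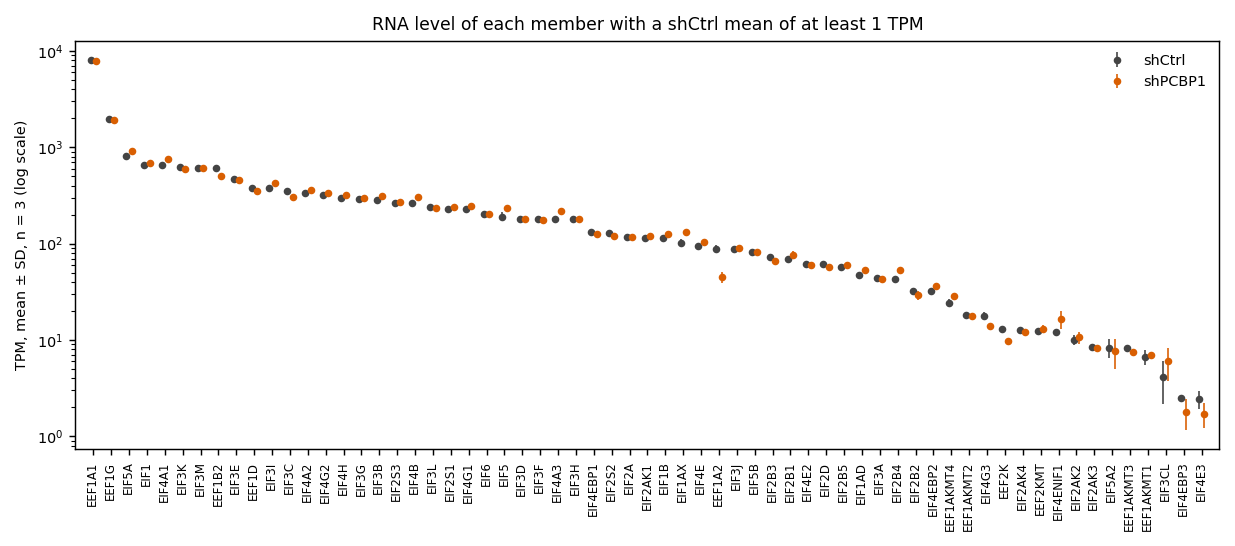
Length-scaled level of each member with a shCtrl mean of at least 1 TPM, on a log axis, as the mean ± SD of 3 libraries per group and ordered by the shCtrl mean. Levels run from above 1000 TPM for EEF1A1 and EEF1G to a few TPM for EIF4E3, and the points of EEF1A2 are the most widely separated among genes above 20 TPM.

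Transcript use within the genes was compared next, as the share of a gene's TPM held by each transcript. Of 168 member transcripts in 54 genes, 2 changed (adjusted p under 0.05 by limma on log2 TPM ratios, and a share difference over 5 percentage points), both of them lower. For EIF2AK2-203, described below, a lower call was the only one possible. Among all 38515 transcripts tested 0.683% changed. Without that adjustment 37 member transcripts (22.0%) had a p under 0.05, against 13.7% of all transcripts. That background was not matched to the members for depth, and the difference was not tested.

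EIF4G1-233 is annotated as a retained-intron transcript of 7 exons and 1271 bases. It begins inside an intron of the main transcript EIF4G1-202, 15 bases before exon 27 of 33 (chromosome 3, 184328631 to 184328756). It thus lacks all earlier exons, and only those 15 bases lie outside the exons of the main transcript. Its level was 33.9, 26.5 and 32.5 TPM in shCtrl and 18.3, 16.5 and 19.1 TPM in shPCBP1. The share of EIF4G1 RNA assigned to it went from 13.5% ± 1.4 to 7.25% ± 0.55 (SD, n = 3, limma adjusted p 0.0277), and the groups did not overlap. The remaining bases of EIF4G1-233 all lie in exons of the main transcript. EIF2AK2-203, a shorter coding transcript of the gene, had 1.92, 0.724 and 1.76 TPM in shCtrl and was listed at 0 in each shPCBP1 library, and a listed 0 can be a failed estimate. Its share of EIF2AK2 RNA was 16.8%, 7.77% and 18.3% in the shCtrl libraries (limma adjusted p 0.0164). The share filter used the mean over all libraries, so EIF2AK2-203 entered the test through its shCtrl shares alone. With 0 in each shPCBP1 library a lower call was the only one possible, so the direction of this call is not a finding. Leaving out shCtrl replicate 1 or any shPCBP1 replicate ended both calls, with 0 transcripts past the rule. Leaving out shCtrl replicate 3 ended the call of EIF4G1-233. There EIF2AK2-203 fell under the share filter and was not tested, so 0 passed as well.

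PCBP1 binds C-rich RNA, so the intron bases that lead into exon 27 of EIF4G1 are shown, in the direction of the gene from GRCh38. Capitals mark those with which EIF4G1-233 begins.
EIF4G1, chr3:184328601-184328630, plus strand: gaatgtcttgactttGAATTCCCTTGGCAG
The stretch holds 6 C in 30 bases. Over 672 such stretches before exons in 61 members the median was 7 C, with quartiles of 4 and 9. The EIF4G1 stretch was thus near the median, and these counts describe letters and no binding.

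EEF1A2, whose fall was largest, was split by Salmon over similar transcripts, which were looked at after the fall was seen. EEF1A2-201, the main coding transcript, had 74.3, 58.3 and 34.3 TPM in shCtrl and 10.6, 12.7 and 15.0 TPM in shPCBP1. EEF1A2-202, annotated as lacking a stop codon, had 2.66, 24.6 and 46.4 TPM in shCtrl and 19.3, 24.8 and 26.9 TPM in shPCBP1. Because the division varied this widely within shCtrl, the transcript that carried the fall was not resolved. Counting coding transcripts alone, EEF1A2 had a log2 fold change of -1.67 (DESeq2 adjusted p 9.27e-12).

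**Figure D4:**
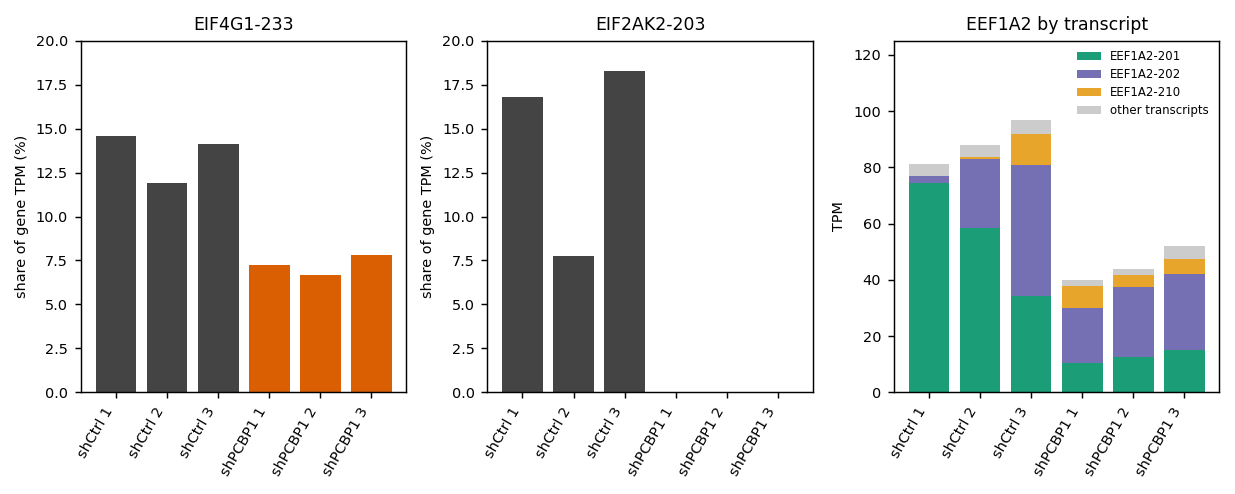
Bars give 1 library each, with the share of the gene's TPM held by EIF4G1-233 and EIF2AK2-203 in percent, and the TPM of EEF1A2 stacked by transcript. EIF2AK2-203 is listed at 0 in all shPCBP1 libraries, and the EEF1A2 bars of shPCBP1 are all shorter than those of shCtrl while their division differs between libraries.

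Genes that act on or beside these factors were listed by role as well, 56 in all, of which 27 changed, 21 higher and 6 lower. That was 48.2%, while among well-counted protein-coding genes 45.2% changed, 29.4% higher and 15.8% lower. The sets are unlike, since some listed genes have a mean normalized count under 1000, as PAIP2B with 48. Of the 9 genes for making hypusine on EIF5A and diphthamide on EEF2, 6 rose and 0 fell. Among well-counted protein-coding genes 29.4% rose, a background that DPH6, with a mean normalized count of 559, does not match. Of the 6, DPH1 passed narrowly (log2 fold change 0.16, DESeq2 adjusted p 0.0441), had overlapping groups and overlaps OVCA2 on its strand. DPH5, DPH6 and DPH7 did not pass and had log2 fold changes of -0.08, -0.22 and -0.05. DOHH, the iron-dependent hydroxylase that completes hypusine, rose from 4339, 3666 and 4325 to 5319, 5490 and 5128 normalized counts (log2 fold change 0.37, SE 0.0657, DESeq2 adjusted p 3.08e-07). DPH2, a subunit of the iron-sulfur enzyme that starts diphthamide synthesis, rose from 5792, 5174 and 6078 to 7278, 6798 and 6918 (log2 fold change 0.30, DESeq2 adjusted p 5.12e-06). DHPS, which acts before DOHH and was singled out after its value was seen, rose by 0.21 (DESeq2 adjusted p 0.000428) and overlaps another coding gene on its strand.

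LARP1, which binds TOP mRNAs next to the cap, had the largest rise among the 56. Its normalized counts were 41703, 39584 and 41712 in shCtrl and 58998, 55378 and 54798 in shPCBP1 (log2 fold change 0.46, SE 0.0378, DESeq2 adjusted p 1.36e-31), and the groups were far apart. Among the 13 poly-A binding and cap complex partners, 3 rose and 3 fell. The lower ones were MKNK2, a kinase of EIF4E (-0.23, DESeq2 adjusted p 5.21e-08), PDCD4, which blocks EIF4A (-0.21, 0.0018), and PAIP2, which blocks poly-A binding protein (-0.11, 0.0196). MKNK2 did not pass with length offsets (DESeq2 adjusted p 0.0636) and PDCD4 not with coding transcripts alone (0.138), while length offsets moved PDCD4 to -0.36. PAIP2 did not pass with length offsets (0.276) or without shCtrl replicate 2 or 3 or shPCBP1 replicate 1 or 3 (lowest DESeq2 adjusted p 0.0561).

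Of 12 genes of EIF2 and TOR control, 5 rose and 2 fell. PPP1R15A (GADD34), which brings a phosphatase to EIF2, rose from 8632, 9131 and 9162 to 10932, 11372 and 10875 normalized counts (log2 fold change 0.30, DESeq2 adjusted p 5.83e-11). RPS6KB2, a kinase downstream of TOR, fell from 7778, 7381 and 7792 to 5917, 6093 and 5831 (log2 fold change -0.36, DESeq2 adjusted p 1.30e-13). DDIT3 (CHOP), a target of the EIF2 kinase pathway that overlaps another coding gene, had 2123, 2898 and 2056 normalized counts in shCtrl and 1756, 1916 and 2054 in shPCBP1. DDIT3 passed with a log2 fold change of -0.30 (DESeq2 adjusted p 0.0202), but shCtrl replicate 2 decided its size, since without it the log2 fold change was -0.13 (DESeq2 adjusted p 0.280). DDIT3 did not pass without shPCBP1 replicate 1 (0.155) or 2 (0.0933), under edgeR (adjusted p 0.0562), with length offsets (0.0547), at a mean count over 50 (0.173) or with protein-coding genes alone (0.167) either. In the remaining lists, 5 of 8 termination and recycling genes changed (4 higher and 1 lower). So did 2 of 5 genes listed under selenocysteine and multisynthetase, and 1 of 9 mitochondrial factors. The last was MRRF, the mitochondrial ribosome recycling factor, which rose by 0.34 (DESeq2 adjusted p 3.42e-08), and AIMP2, a scaffold of transfer RNA synthetases, rose by 0.33 (4.92e-06). METTL13, kept in the same list as AIMP2 though it has neither role, rose by 0.23 (DESeq2 adjusted p 2.87e-05). DENR, a partner in recycling, fell by 0.12 (DESeq2 adjusted p 0.0206) and did not pass without shCtrl replicate 1 or 3 or shPCBP1 replicate 2 or 3 (DESeq2 adjusted p from 0.0818 to 0.114) or with length offsets (0.329).

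**Figure D5:**
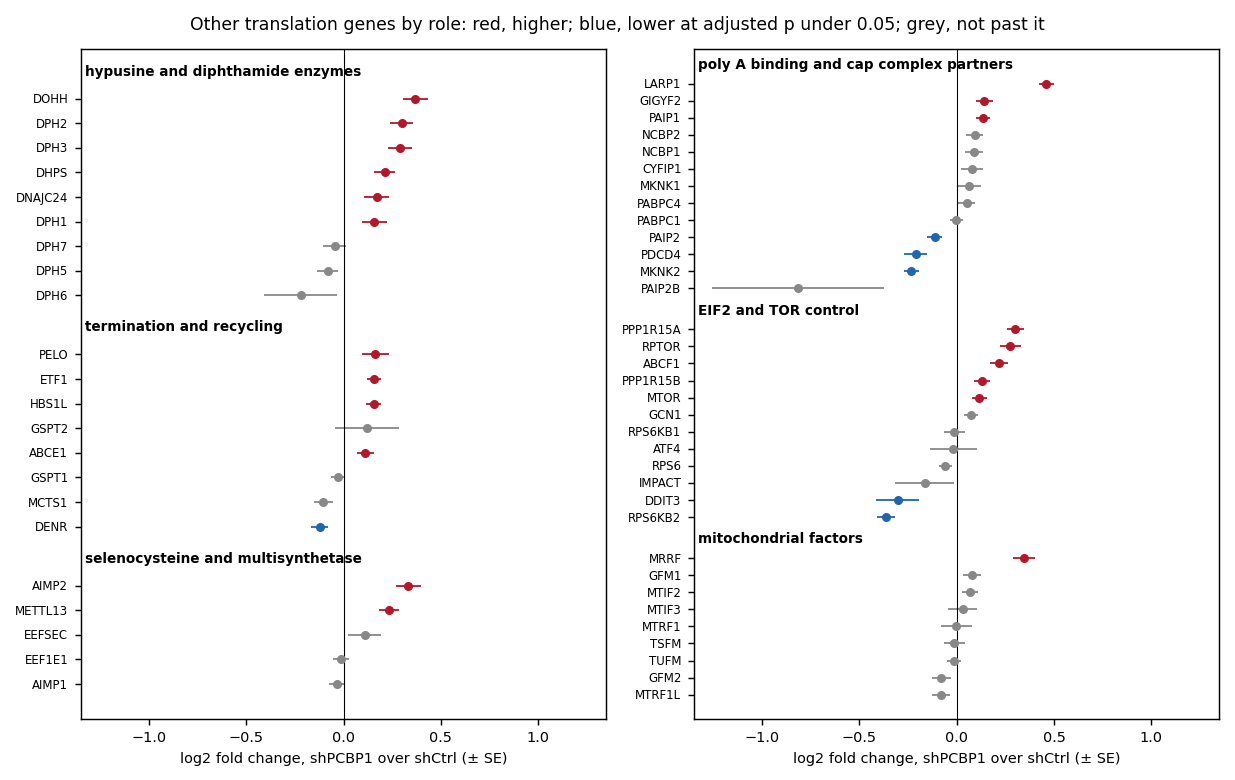
The 56 other translation genes by role, with the log2 fold change of shPCBP1 over shCtrl and its standard error. Red marks genes higher and blue genes lower at a DESeq2 adjusted p under 0.05, with LARP1 at 0.46 and RPS6KB2 at -0.36 as the farthest changed points in each direction.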

How the data were processed

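The authors quantified paired 150-cycle reads of 6 poly-A libraries with Salmon 1.10.2, and deposited estimated counts per transcript, which carry no normalization and can hold fractions. TPM as deposited is scaled by effective transcript length and sums to the same total in each library. The annotation behind the Salmon index and the use of strand are not given in the sources used here. Of 252045 transcripts, 251612 matched GENCODE release 44 (GRCh38), and the rest held 0.136% to 0.147% of a library's counts. Total counts were 126567836, 83033656 and 140522444 in shCtrl and 85121124, 79189195 and 67066747 in shPCBP1.

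Counts were added up by gene, rounded and, where the 6 libraries together held 10 or more, passed to DESeq2 1.42.0 (two-sided Wald test, median-of-ratios factors, group as the only term, unshrunken fold changes). Adjusted p-values set to missing stayed missing. Transcripts with a mean share from 5% to 95% in genes of at least 1 TPM were tested with limma 3.58.1 on log2 ratios with a pseudocount of 0.1 TPM. Both fits were tested on simulated data. The gene fit missed most small changes and found most large ones. The transcript fit missed most share changes, small or large, so transcripts without a call may have changed.

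The members and lists were chosen with earlier results of these data known. Library values are given for the 8 members with the lowest p in each direction and a set panel of factors, for member transcripts past the share rule and for up to 6 listed genes in each direction. Named pseudogenes (154 for 28 members) held at most 0.682% of a member's counts (EIF3F), and 11 members overlap a coding gene on the same strand. The sequence of another splice site is not reported here. Alternatives covered edgeR 4.0.16, TMM factors, length offsets, filters, transcript classes, a replicate block and leaving out each library. R 4.3.3 and Python 3.11.15 were used.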

Additional observations from a re-analysis of the deposited data

How the results depend on the processing

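PCBP1 stayed between -2.50 and -2.42 on the log2 scale under every alternative. The count of changed members, 29 as reported, was 22 with length offsets, 23 with edgeR and 27 to 29 with the other scalings, filters and gene sets, of which adding EIF3CL to EIF3C (28) was chosen after seeing the data. It was 19 to 26 when 1 library was left out. Of the 29 members, 16 passed under every alternative, and 8 members that did not change passed under at least 1. Replicate numbers did not pair the libraries, as the correlations of same-numbered deviations were 0.013, 0.0045 and -0.028, and with the replicate block 25 members and 0 transcripts changed, with the calls of EIF1B, EIF2B2, EIF2D and EIF4E lost. The 2 transcripts became 1 with shares from 1% to 99% (EIF2AK2-203), from 10% to 90% (EIF4G1-233) or differences over 10 points (EIF2AK2-203), 0 with estimated counts in place of TPM, and 0 to 2 when 1 library was left out. With shares from 10% to 90% and without shCtrl replicate 3, EIF2AK2-203 was under the share filter and was not tested. With coding transcripts alone 2 were called, of which 1 was shared. The sign turned for EIF2AK1 (0.086 with length offsets), EIF2AK3 (0.035 with coding transcripts alone) and EIF4A2 (-0.029 with coding transcripts alone), and it also turned for EIF2AK3 without shCtrl replicate 2 (0.00030) or 3 and for EIF2AK1 without shCtrl replicate 3. Leaving out 1 library gave -0.053 to 0.0087 for EIF2AK1 and -0.044 to 0.0093 for EIF2AK3. Of these genes only EIF4A2 had passed the test. The causes were not tested. The shallowest library was shPCBP1 replicate 3, and 3 libraries a group limit the transcript estimates most, where leaving out any of 5 libraries left 0 calls.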
